A study of Homo sapiens with 2 samples.

Results

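C/D box snoRNAs were taken as the entries of type snoRNA, in a deposited table of small RNA counts, whose gene name starts with SNORD, snoU, U3 or U8. Names that start with SNORA, ACA or SCARNA were left out. The choice gave 326 entries out of 748 snoRNA entries and 5475 listed small RNAs in all. They carry 228 SNORD gene symbols, and 46 further entries are known only by their Rfam family, as copies of U3, U8 or snoU13. Of the remaining snoRNA entries, 201 were H/ACA box snoRNAs or scaRNAs and 221 could be given no name. Some of the unnamed entries may be C/D box snoRNAs that the choice missed.

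The libraries came from A549, a human lung adenocarcinoma cell line, kept for 24 h at 20% oxygen (normoxia) or at 1.2% oxygen (hypoxia), with 1 library per condition. Total RNA was made into size-selected small RNA libraries with a ligation kit and sequenced on the SOLiD platform. Its total is 6449337 counts for normoxia and 13115226 for hypoxia, so the hypoxia library is the deeper one, and every listed small RNA has at least 3 counts over both. With no second culture per condition there is no spread between cultures: the intervals given are exact 95% intervals that cover counting error only, because PCR reads without molecular identifiers are not independent molecules. The hypoxia marker miR-210 had 4307 counts in normoxia and 22849 in hypoxia (log2 ratio 1.38). On the scale of CPM, counts per 1000000 of all counts of the library, the epithelial miR-200b-3p stood at 616 and 711 (log2 ratio 0.21), miR-141-3p at 26.05 and 16.7 (-0.64) and miR-200c-3p at 16.9 and 16.2 (-0.06). Blood cell markers were low, with 12.7 and 14.6 CPM for miR-451a and 0.775 and 0.457 CPM for miR-142-3p, while miR-223-3p is not listed. The squamous marker miR-205-5p had 1.86 and 1.14 CPM.

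C/D box snoRNAs are nucleolar RNAs named after short sequence boxes, C near the start and D near the end, that hold the proteins of the particle together. Most of them guide fibrillarin to single bases of ribosomal RNA for methylation of the ribose, and a few, such as U3 and U8, are needed to cut the ribosomal RNA precursor. Most human members are released from introns of host genes, many of which encode ribosomal proteins or are non-coding RNAs that serve mainly as carriers. In small RNA libraries they appear as short RNAs or as pieces of longer ones, and the table gives only 1 count per entry, without the place of the reads within it.

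The 4 entries with the most counts in normoxia are shown first, since they set the level of the class. Capitals mark box C where TGATGA starts within the first 15 bases, and box D where at most 10 bases follow CTGA, read on the RNA strand only. The coordinates are those of the table, in build hg19 according to the submitters' notes, and strand and gene context come from matches to GRCh38. SNORD27 (chr11:62622484-62622555) and SNORD29 (chr11:62621376-62621440) lie on the minus strand in SNHG1. SNORD44 (chr1:173835104-173835166) and SNORD47 (chr1:173833507-173833583) lie on the minus strand in GAS5. In the annotation all 4 overlap an exon of a non-coding or retained-intron transcript of their host. SNORD47 has box D but not TGATGA in the window.
SNORD27: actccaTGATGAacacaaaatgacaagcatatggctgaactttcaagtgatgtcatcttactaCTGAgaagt
SNORD44: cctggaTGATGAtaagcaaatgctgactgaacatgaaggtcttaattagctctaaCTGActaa
SNORD47: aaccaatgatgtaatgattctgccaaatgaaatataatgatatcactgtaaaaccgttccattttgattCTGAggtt
SNORD29: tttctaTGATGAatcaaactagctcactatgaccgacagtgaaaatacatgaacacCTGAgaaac

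The next set holds the members past the size rule used for single entries, an absolute log2 ratio of at least 1 at a mean CPM of at least 10, with their closest relatives. CPM is taken over all counts of the library, and ratios of single entries carry a prior count of 2. SNORD67 (chr11:46783939-46784049, minus strand) lies in an intron of CKAP5, which encodes a microtubule-binding protein. SNORD18A (chr15:66795581-66795652), SNORD18B (chr15:66794358-66794429) and SNORD18C (chr15:66793588-66793656) lie on the minus strand in RPL4, a gene of a large-subunit ribosomal protein, where they overlap exons of non-coding or retained-intron transcripts. A copy of U8 on chromosome 2 (chr2:86574185-86574318, minus strand) and a more abundant copy on chromosome 11 (chr11:123172098-123172231, plus strand) lie outside annotated genes on their strand, and neither has TGATGA in the window.
SNORD67: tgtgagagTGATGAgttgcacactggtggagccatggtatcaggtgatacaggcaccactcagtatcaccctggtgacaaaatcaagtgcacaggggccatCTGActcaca
SNORD18A: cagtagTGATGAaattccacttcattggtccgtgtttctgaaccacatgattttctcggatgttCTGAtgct
SNORD18B: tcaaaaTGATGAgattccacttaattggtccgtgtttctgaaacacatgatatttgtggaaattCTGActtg
SNORD18C: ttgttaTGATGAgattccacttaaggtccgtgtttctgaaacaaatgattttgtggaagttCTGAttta
U8 copy on chromosome 2: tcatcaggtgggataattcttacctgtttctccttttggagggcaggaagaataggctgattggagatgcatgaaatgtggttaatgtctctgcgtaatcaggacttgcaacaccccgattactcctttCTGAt
U8 copy on chromosome 11: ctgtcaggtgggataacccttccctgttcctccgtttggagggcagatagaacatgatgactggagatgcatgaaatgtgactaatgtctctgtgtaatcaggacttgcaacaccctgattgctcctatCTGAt

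The third set holds the 2 members with the smallest ratios at a mean CPM of at least 10, SNORD19C and SNORD45B, beside relatives from the same host gene whose ratios lie on the other side of 0. SNORD45A (chr1:76253574-76253657), SNORD45B (chr1:76255162-76255233) and SNORD45C (chr1:76252757-76252835) lie on the plus strand in RABGGTB, which encodes a subunit of the enzyme that attaches lipid anchors to Rab proteins. SNORD45C also lies within ACADM, and the 3 overlap exons of non-coding or retained-intron transcripts. SNORD19B (chr3:52724760-52724843, such an exon) and SNORD19C (chr3:52725394-52725469, intron) lie on the plus strand in GNL3, the gene of nucleostemin, a nucleolar GTP-binding protein. Box D was not found in the window of either SNORD19 entry, as listed in the table, and box C only in SNORD19B.
SNORD45A: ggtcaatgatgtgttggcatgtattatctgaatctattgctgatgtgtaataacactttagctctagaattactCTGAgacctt
SNORD45B: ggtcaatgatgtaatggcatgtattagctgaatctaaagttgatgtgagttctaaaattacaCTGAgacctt
SNORD45C: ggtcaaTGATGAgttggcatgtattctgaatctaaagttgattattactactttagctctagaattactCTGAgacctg
SNORD19B: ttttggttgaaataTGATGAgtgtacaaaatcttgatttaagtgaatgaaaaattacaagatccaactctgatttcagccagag
SNORD19C: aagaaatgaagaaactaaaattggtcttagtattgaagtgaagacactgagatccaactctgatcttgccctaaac

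C/D box snoRNAs made up a larger share of all counts in hypoxia and an almost equal share of snoRNA counts. They held 273825 of all counts in normoxia and 656728 in hypoxia. As a share of all counts this was 4.25% (4.23 to 4.26) in normoxia and 5.01% (4.996 to 5.019) in hypoxia, 1.18-fold, with a log2 ratio of 0.24 (0.23 to 0.24). Among snoRNA counts the share was 84.0% (83.9 to 84.1) in normoxia and 83.8% (83.7 to 83.8) in hypoxia, a log2 ratio of -0.0038. The difference in the second share is small, although its counting intervals do not overlap, while snoRNAs as a whole took more of the library, 5.06% of all counts in normoxia and 5.98% in hypoxia. H/ACA box snoRNAs and scaRNAs went from 0.465% (0.460 to 0.470) to 0.556% (0.552 to 0.560) of all counts, a log2 ratio of 0.26. The snoRNA entries without a name went from 0.345% to 0.415%, a log2 ratio of 0.27.

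A share of counts does not give an amount per cell: more of these RNAs per cell and less of the rest cannot be told apart. The rest of the library also differed between the conditions. Mature miRNAs held 70.0% of all counts in normoxia and 65.6% in hypoxia, and tRNA entries of the UCSC set 8.31% and 7.25%. Fragments of rRNA held 3.77% and 6.55%, and snRNAs 4.55% and 6.15%. The other scalings tried for single entries lower the log2 ratio of a well-counted entry by close to a fixed amount, 0.24 for shares of snoRNA counts, 0.11 for TMM over all features, 0.10 for DESeq2 size factors and 0.02 for TMM over mature miRNAs. Entries with few counts move by less, because of the prior count. For a well-counted entry or a sum, a log2 ratio well under 0.24 over all counts is therefore below 0 as a share of snoRNA counts. The part of library composition in the ratios was not tested.

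**Figure D1:**
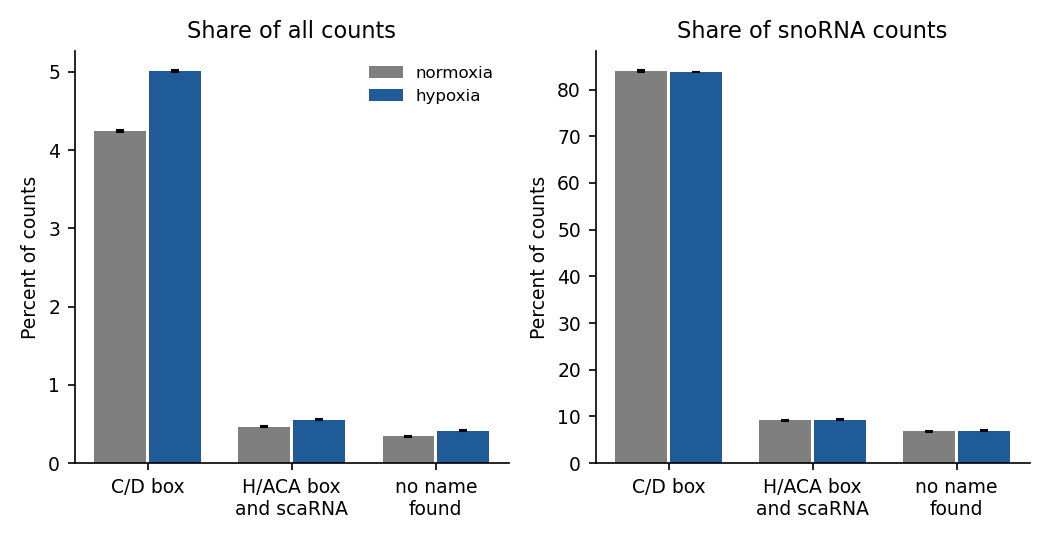
Percent of all counts (left) and of snoRNA counts (right) on C/D box snoRNAs, H/ACA box snoRNAs with scaRNAs, and snoRNA entries without a name, in normoxia (grey) and hypoxia (blue), with exact 95% counting intervals. C/D box snoRNAs hold 4.25% and 5.01% of all counts, log2 ratio 0.24, but 84.0% and 83.8% of snoRNA counts, log2 ratio -0.0038.

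Few members carried most of the counts. In normoxia 18 entries held 50% of the C/D box counts and 81 held 90%, and in hypoxia 19 and 82 did. SNORD27, a guide of small-subunit rRNA methylation, was the entry with the most counts in both libraries. It held 6.93% of the C/D box counts in normoxia and 6.42% in hypoxia. This ranking is by entry: SNORD44 is split over 2 well-counted entries, with 14971 and 4321 counts in normoxia and 34737 and 8871 in hypoxia. Together these exceed the SNORD27 entry, with 18976 and 42142, but whether the SNORD44 entries share reads is not stated. The 10 most abundant entries held 37.6% and 34.99%. The 10 of each library make 11 names together, 9 of them in both lists: SNORD30 is in the list of normoxia and SNORD74 in that of hypoxia. At least 100 counts were reached by 147 entries in normoxia and 175 in hypoxia, the deeper library, so these numbers are not at equal depth. The 23 entries with 0 counts in normoxia had 3 to 12 counts in hypoxia, and 3 counts in normoxia are 0.465 CPM. No entry was at 0 in hypoxia, where 3 counts are 0.229 CPM.

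SNORD27 stood at 2942 CPM (2901 to 2984) in normoxia and 3213 CPM (3183 to 3244) in hypoxia. By counts of single entries the first SNORD44 entry followed, at 2321 and 2649 CPM, and SNORD47 at 1930.0 and 1928 CPM. Per length, on a scale of CPM per 100 bases, the order of these 3 single entries is the same. SNORD27 had 4087 and 4463, the first SNORD44 entry 3685 and 4204, and SNORD47 2506 and 2504. SNORD29, of 65 bases, lies close to SNORD47 on that scale, at 2450.1 and 2620.0. SNORD22, of 126 bases, has 1043 and 1306 CPM but only 828 and 1037 CPM per 100 bases. The log2 ratios were 0.13 (0.10 to 0.15) for SNORD27, 0.19 (0.16 to 0.22) for SNORD44, -0.00 (-0.03 to 0.03) for SNORD47 and 0.10 (0.06 to 0.13) for SNORD29. All of these are below 0 as shares of snoRNA counts, from -0.05 for SNORD44 to -0.24 for SNORD47.

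The entries with the next most counts come from ZFAS1, GAS5 and SNHG1. SNORD12C and SNORD12B, both from the non-coding host ZFAS1, had 1485 and 1445 CPM in normoxia and 1581 and 1704 CPM in hypoxia. SNORD76 from GAS5 had 1275 and 1292 CPM. SNORD25 and SNORD30, both from SNHG1, had 1009 and 931 CPM in normoxia and 1122 and 999.7 CPM in hypoxia. SNORD74 from GAS5 differed more than the rest of these, with 717 and 1024 CPM and a log2 ratio of 0.51 (0.47 to 0.56), and 0.27 as a share of snoRNA counts. The 20 most abundant entries had log2 ratios from -0.00 to 0.53, so none of them passed the size rule.

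**Figure D2:**
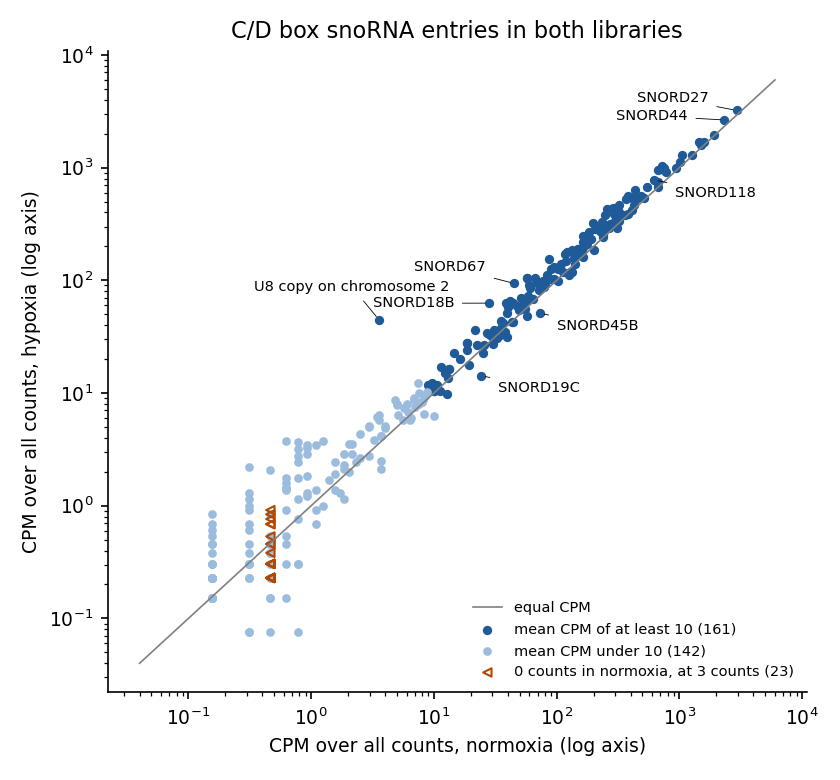
CPM over all counts of each C/D box snoRNA entry in normoxia (x axis, log) and hypoxia (y axis, log), with the 161 entries at a mean CPM of at least 10 in dark blue, the others in light blue, and the 23 entries at 0 counts in normoxia as triangles at 3 counts. Most points follow the line of equal CPM closely from SNORD27, at 2942 and 3213 CPM, down to 10 CPM, and the U8 copy on chromosome 2, at 3.57 and 44.7 CPM, lies farthest above it.

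Of the 326 entries, 161 reached a mean CPM of at least 10, and these hold 99.3% of the C/D box counts in each library. They are the better counted entries, not all members, and an entry can pass through 1 library alone: 6 did, 5 of them through hypoxia. Their median log2 ratio was 0.27 (quartiles 0.09 and 0.43), beside 0.12 over all 1548 small RNAs past the filter. By class, the median was 0.31 for 92 H/ACA box snoRNAs and scaRNAs, 0.25 for 167 snRNAs, 0.80 for 128 rRNA entries, -0.03 for 286 mature miRNAs and -0.09 for 433 tRNA entries. Of the 161 entries, 139 (86.3%) had a ratio above 0 over all counts, against 61.0% of all features past the filter, and 84 (52.2%) as shares of snoRNA counts, against 37.02% of all features on that scale. Under TMM over all features 72.0% of them did so, against 50.9% of all features, and with DESeq2 size factors 73.9%, against 52.6%. The counting interval lay above 0 for 66.5% of the entries and below 0 for 4.97% over all counts, against 42.2% and 26.1% of all features past the filter, and for 32.3% and 28.6% as shares of snoRNA counts, against 21.96% and 43.8% of all features. On that scale the median was 0.03 for the entries and -0.12 for all features. Across all 5 scalings, 84 entries were always above 0, 22 always below and 55 mixed.

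Past the size rule, 3 of the 161 entries (1.86%) rose in hypoxia, against 4.33% of all features past the filter, and 0 fell, against 2.78%. As shares of snoRNA counts 1 entry (0.621%) was past the rule upward and 1 downward, against 2.33% and 5.17% of all features. At a log2 ratio of at least 0.5, 31 entries (19.3%) were past it upward, against 19.4%, and 2 (1.24%) downward, against 9.82%. C/D box snoRNAs therefore passed the size rule no more often than the listed small RNAs at large. Across the 161 entries the ratio had a Spearman correlation of 0.08 with length, -0.01 with GC content and 0.04 with mean CPM, all within 1 pair of libraries, and entries that share a host or sequence are not independent points. CPM in normoxia and in hypoxia correlated at 0.99.

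**Figure D3:**
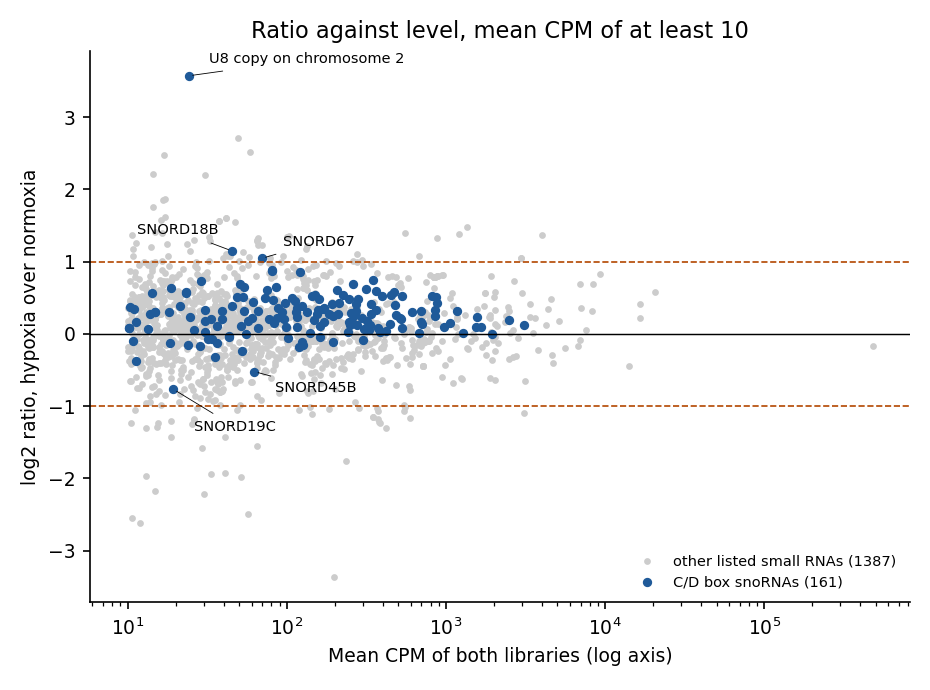
Log2 ratio of hypoxia over normoxia (y axis) against mean CPM over both libraries (x axis, log) for 161 C/D box snoRNA entries (blue) and 1387 other listed small RNAs (grey) at a mean CPM of at least 10, with dashed lines at the size rule. The blue points have a median of 0.27 over all counts, but 0.03 as shares of snoRNA counts, and 3 of them lie above the upper line.

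The U8 copy on chromosome 2 had the largest ratio. It had 23 counts in normoxia and 586 in hypoxia, or 3.57 CPM (2.26 to 5.35) and 44.7 CPM (41.1 to 48.4), and a log2 ratio of 3.57 (3.05 to 4.32). It passed the filter through hypoxia alone. The ratio stayed past the rule as a share of snoRNA counts, at 3.34, though the entry is no longer counted when entries known by Rfam family only are left out or entries of 1 name are merged to their highest. U8 itself, SNORD118, had 4023 and 10184 counts and a log2 ratio of 0.32 (0.26 to 0.37), and the copy is 87.3% identical to it over the length of the shorter sequence. The more abundant copy on chromosome 11, which is 91.0% identical to SNORD118, had 1878 and 5079 counts and a log2 ratio of 0.41 (0.33 to 0.49). Another copy past the filter, on chromosome 1, had 226 and 496 counts and a log2 ratio of 0.11 (-0.12 to 0.34) and both of these copies were chosen after their values were seen. Of the 20-base windows of the chromosome 2 copy, 20.9% also occur in listed entries of another name, against 47.8% for SNORD118, and the sources used here do not say whether reads were shared between such entries.

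SNORD18B rose from 28.2 CPM (24.3 to 32.6; 182 counts) to 62.8 CPM (58.5 to 67.2; 823 counts), a log2 ratio of 1.15 (0.92 to 1.39). The other SNORD18 members in RPL4, like it guides of large-subunit rRNA methylation, stood apart from it. SNORD18A, with 137.5 and 157.7 CPM, had a log2 ratio of 0.20 (0.08 to 0.31), and SNORD18C, with 26.98 and 34.01 CPM, one of 0.33 (0.08 to 0.60). SNORD16, from the same host, had 53.6 and 60.8 CPM and a ratio of 0.18 (-0.00 to 0.37). The 3 SNORD18 sequences are close, with 83.3% of bases identical between 18A and 18B and 88.4% between 18B and 18C, yet none of their 20-base windows occurs in an entry of another name. SNORD18B lay past the rule under TMM and DESeq2 scaling but at 0.91 as a share of snoRNA counts.

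SNORD67, which guides methylation of the U6 spliceosomal RNA, rose from 45.3 CPM (40.2 to 50.8; 292 counts) to 93.7 CPM (88.5 to 99.1; 1229 counts). Its log2 ratio of 1.05 (0.86 to 1.24) was the smallest past the rule, and it was 0.81 as a share of snoRNA counts. SNORD67 also fell short of the rule under TMM over all features and DESeq2 size factors. Just outside the rule were 2 entries of SNORD62A/SNORD62B, hosted by PRRC2B, with 368 counts each in normoxia and 1378 and 1377 in hypoxia, a log2 ratio of 0.88 each (0.71 to 1.05). These entries share 1 sequence, so they are uncertain as separate measurements.

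On the lower side no entry passed the rule over all counts, and 2 were past -0.5. SNORD19C had 24.3 CPM (20.7 to 28.5; 157 counts) in normoxia and 14.3 CPM (12.3 to 16.5; 187 counts) in hypoxia, a log2 ratio of -0.76 (-1.09 to -0.46), and -1.003 as a share of snoRNA counts, where it is the entry past the rule. SNORD45B had 73.3 CPM (66.9 to 80.3; 473 counts) and 51.1 CPM (47.3 to 55.1; 670 counts), a log2 ratio of -0.52 (-0.69 to -0.35). Further up, SNORD88C from C19orf48 had 254 and 412 counts and a ratio of -0.32 (-0.56 to -0.09). SNORD99 from SNHG12 had 367 and 633 counts and a ratio of -0.24 (-0.43 to -0.05). The intervals of these 4 lie below 0, and their ratios stay below 0 under all 5 scalings.

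The snoRNAs of 1 host gene are cut from 1 transcript, so their ratios were compared within hosts. A host was found in GRCh38 annotation for 279 entries, in 94 host genes, and 35 hosts had at least 2 entries past the filter. The median log2 ratio of a host was above 0 in 33 of the 35 over all counts, in 31 under TMM over all features and in 22 as shares of snoRNA counts. The counting intervals of the lowest and the highest entry were apart in 21 of the 35 hosts and overlapped in the rest, and the median distance between these chosen extremes was 0.33 on the log2 scale. Without a second culture these distances can be read against counting error only. In 3 hosts, GNL3, RABGGTB and LRRC75A-AS1, intervals lay on both sides of 0 over all counts, and in 13 hosts as shares of snoRNA counts. Entries without a name were left out here, and an abundant one in the GAS5 region had an interval below 0 over all counts.

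GNL3 had the widest range, 1.45. There SNORD19B, with 38.6 and 62.4 CPM, had a log2 ratio of 0.69 (0.49 to 0.90), SNORD69, with 761 and 2225 counts, one of 0.52 (0.40 to 0.64), and SNORD19C the -0.76 given above. These signs held under all 5 scalings. The 2 SNORD19 sequences printed above share 68.4% of bases. In RABGGTB the range was 1.16: SNORD45A had 68.7 and 95.5 CPM and a ratio of 0.47 (0.32 to 0.63), SNORD45C had 14.6 and 22.9 CPM and a ratio of 0.64 (0.31 to 1.00), and SNORD45B lay at -0.52. These guides of small-subunit rRNA methylation are close in sequence, 87.5% identical between 45A and 45B and 89.9% between 45A and 45C. Of the 20-base windows of SNORD45B, 66.0% occur in listed entries of another name, against 15.4% for SNORD45A. None of the SNORD45B windows occurs in SNORD45A or SNORD45C as printed above, and the listed entry or entries that hold them were not identified. The 5 listed RABGGTB entries, of which these 3 passed the filter, had summed counts with a log2 ratio of 0.12 (0.01 to 0.22) over all counts, which is below 0 as a share of snoRNA counts, while their median was 0.47 over all counts and 0.23 as a share of snoRNA counts. SNORD19B, SNORD18C, SNORD45C and SNORD16 were chosen after their values were seen.

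**Figure D4:**
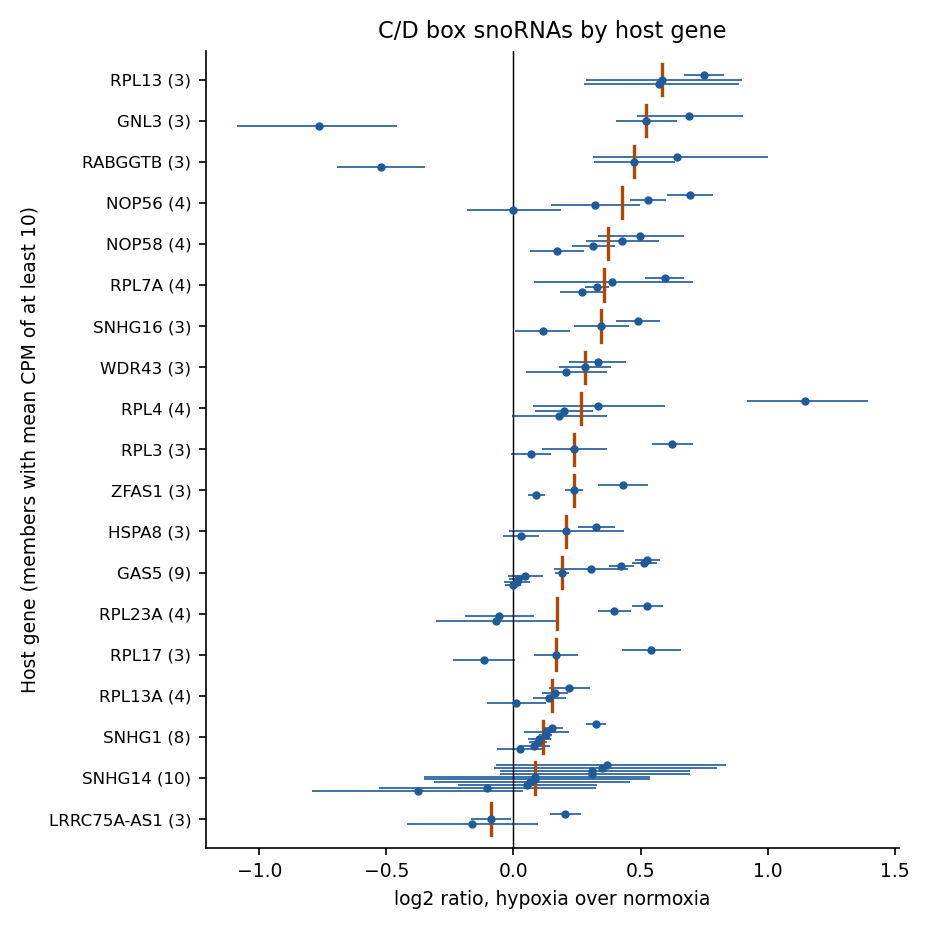
Log2 ratio over all counts (x axis) of each C/D box snoRNA entry with its exact 95% counting interval, by host gene (y axis), for the reported hosts with at least 3 entries past the filter, and the median of each host as a vertical bar. Entries of GNL3, from -0.76 to 0.69, and of RABGGTB, from -0.52 to 0.64, lie on both sides of 0 under all 5 scalings, and SNORD18B in RPL4 lies at 1.15; as shares of snoRNA counts the points move down by close to 0.24, which puts the medians of hosts such as GAS5 and SNHG1 below 0.

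The non-coding hosts GAS5 and SNHG1 carried the largest parts of the class. The 12 GAS5 entries held 56872 counts in normoxia and 131892 in hypoxia, 20.8% and 20.1% of C/D box counts, with a log2 ratio of their sums of 0.19 (0.18 to 0.20) over all counts and a median that is -0.05 as a share of snoRNA counts. Along GAS5 the ratio of the entries past the filter ran from -0.00 for SNORD47 and 0.02 for SNORD76 to 0.42 for SNORD80, 0.51 for SNORD74 and 0.53 for SNORD81, and of these 9 entries 5 had intervals above 0 and 0 had intervals below. As shares of snoRNA counts these were 3 and 5. Of all features past the filter, 42.2% had intervals above 0 and 26.1% below 0 over all counts. On the scale of snoRNA counts these were 21.96% and 43.8%. The 15 SNHG1 entries held 54882 and 123178 counts, 20.0% and 18.8% of C/D box counts, with a ratio of sums of 0.14 (0.13 to 0.16) over all counts and a median of -0.13 as a share of snoRNA counts. They were more even: 8 past the filter ran from 0.03 for SNORD26 to 0.32 for SNORD22. The 3 ZFAS1 entries held 20067 and 46288 counts, and went from 0.09 for SNORD12C to 0.24 for SNORD12B and 0.43 for SNORD12, with a median of 0.24 over all counts and of -0.00 as a share of snoRNA counts. SNORD80, SNORD81, SNORD26 and SNORD12 were chosen after their values were seen.

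Among the ribosomal protein hosts with at least 2 entries past the filter, RPL13 had the highest median, 0.58, with SNORD68 at 258.0 and 433 CPM (ratio 0.75, 0.67 to 0.83). Of its 3 entries, 2 share the SNORD68 sequence. The medians of RPL7A, RPS3 and RPS12 were 0.36, 0.31 and 0.26, with SNORD24 (752 and 945 CPM), SNORD15B (439 and 529 CPM) and SNORD100 (546 and 672 CPM) as their most abundant entries. RPL4 and RPL3 had medians of 0.26 and 0.24. Their most abundant entries over both libraries were SNORD18A and SNORD83A (245 and 379 CPM). In normoxia alone, SNORD43 of RPL3 had more counts than SNORD83A, 1921 against 1583. All of these medians stayed above 0 as shares of snoRNA counts except that of RPL3, at -0.00. RPS13, RPL23A, RPL17 and RPL13A had medians of 0.19, 0.17, 0.17 and 0.15 over all counts, and all 4 were below 0 as shares of snoRNA counts, at -0.05, -0.07, -0.08 and -0.09. The most abundant entries of these 4 hosts were, in that order, SNORD14A, SNORD4B (435 and 627 CPM), SNORD58C (242 and 272 CPM) and SNORD34 (660.4 and 739 CPM). Sums and medians part in 2 of the ribosomal protein hosts: the summed counts of RPL23A had a log2 ratio of 0.40 (0.36 to 0.44) over all counts and those of RPL3 one of 0.33 (0.28 to 0.38), both above the shift of 0.24 and so above 0 as shares of snoRNA counts. RACK1, which encodes a ribosome-bound scaffold protein, had a median of 0.37, with SNORD95 at 183 and 266 CPM.

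Several hosts encode proteins of the nucleolus and of ribosome assembly. NOP56 and NOP58, core proteins of the C/D box particle itself, had medians of 0.43 and 0.37, with SNORD110 at 323 and 466 CPM and SNORD11 at 244 and 303 CPM. The 2 entries of TSR1, an assembly factor of the small subunit, had a median of 0.67, with SNORD91A at 59.7 and 91.3 CPM. PPAN (0.45, with SNORD105B at 107.8 and 140.9 CPM), TAF1D (0.39, SNORD6 at 139.7 and 170.0 CPM) and WDR43 (0.28, SNORD53B at 167 and 202 CPM) follow. The medians of these 6 hosts stayed above 0 as shares of snoRNA counts. NCL, the gene of nucleolin, had a median of 0.17 over all counts and -0.07 as a share of snoRNA counts, with SNORD82 at 205 and 286 CPM. Its summed counts had a ratio of 0.40 (0.32 to 0.48) over all counts, above 0 on either scale.

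The other hosts with at least 2 entries past the filter fall on both sides. SNHG5 and SNHG16, non-coding hosts, had medians of 0.51 and 0.34, with SNORD50A at 163 and 249 CPM and SNORD1B at 233 and 326 CPM. PRRC2B had 0.88, CHD8 0.41 (SNORD8, 41.7 and 65.3 CPM), UBAP2 0.35 (SNORD121B, 47.8 and 59.4 CPM), DDX39B 0.32 (SNORD84, 138 and 174 CPM) and C6orf48 0.29 (SNORD48, 319.7 and 349 CPM). These 7 medians stayed above 0 as shares of snoRNA counts, that of C6orf48 at 0.05. The summed counts of C6orf48 had a log2 ratio of 0.21 (0.15 to 0.28) over all counts, which is under the shift of 0.24 and so below 0 as a share of snoRNA counts, though its interval spans the shift. HSPA8, which encodes a constitutive heat shock chaperone, had 0.21 over all counts and -0.04 as a share of snoRNA counts. The medians of LRRC75A-AS1, -0.09, and C19orf48, -0.24, were below 0 over all counts, under both TMM scalings and as shares of snoRNA counts. That of LRRC75A-AS1 turned to 0.06 without the filter and to 0.0055 over mature miRNA counts, and the ratio of its summed counts was 0.09 (0.04 to 0.14) over all counts. Its entry SNORD65, with 485 and 559 CPM, had a ratio of 0.20 (0.14 to 0.26) over all counts.

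The snoRNAs listed for rRNA processing or for other roles than methylation, U3, U8, U13, U14 and U22, were set apart by role. Their 21 entries held 23648 counts in normoxia and 55154 in hypoxia, with a log2 ratio of the sums of 0.20 (0.18 to 0.22) over all counts, which is below 0 as a share of snoRNA counts. The remaining 305 entries had 0.24 (0.24 to 0.25). U3, which is needed for the first cuts on the way to the small subunit, was the member of the group with the lowest ratio. Its 9 SNORD3 entries held 6134 and 12081 counts, 951 and 921 CPM, with a ratio of sums of -0.05 (-0.09 to -0.00) that is lower still under TMM and as a share of snoRNA counts, but 0.05 over mature miRNA counts. The 5 entries past the filter were SNORD3A (2076 and 4391 counts, 0.06), SNORD3B-1/SNORD3B-2 (1057 and 2095, -0.04), SNORD3C (1302 and 2449, -0.11), SNORD3B-2 (853 and 1561, -0.15) and SNORD3D (819 and 1470, -0.18). Every 20-base window of SNORD3A occurs in a listed entry of another name, so the sum says more than the single entries. SNORD3E, SNORD3G, SNORD3P1 and SNORD3H had 2 to 16 counts in normoxia and 5 to 57 in hypoxia.

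U8, U13, U14 and U22 had ratios above 0 over all counts. SNORD118, which is needed for the large-subunit rRNAs, has its own promoter like U3 and U13 and had 624 and 777 CPM, a ratio of 0.32 (0.26 to 0.37), and 0.07 as a share of snoRNA counts. The 4 SNORD13 entries had 1474 and 3654 counts, nearly all on SNORD13 itself (1463 and 3622), and a ratio of sums of 0.29 (0.20 to 0.37). The other 3, SNORD13P3, SNORD13P1 and SNORD13E, had 0 to 10 counts in normoxia. The 5 SNORD14 entries had 5286 and 12102 counts and a ratio of sums of 0.17 (0.12 to 0.22), which is below 0 as a share of snoRNA counts. In HSPA8, SNORD14C (2087 and 5321 counts) had a ratio of 0.33 (0.25 to 0.40), SNORD14D (2445 and 5074) one of 0.03 (-0.04 to 0.10) and SNORD14E (36.3 and 41.9 CPM) one of 0.21 (-0.02 to 0.43). In RPS13, SNORD14A (415 and 895 counts) had 0.08 and SNORD14B (105 and 263) 0.30. SNORD22 had 6728 and 17131 counts, a ratio of 0.32 (0.28 to 0.37), and 0.08 as a share of snoRNA counts, and a second SNORD22 entry had 3 and 2.

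The imprinted clusters were present at low levels. The 35 entries of the 15q11-q13 cluster, a region expressed mainly in neurons and lost in Prader-Willi syndrome, held 1620 counts in normoxia and 3694 in hypoxia, with a log2 ratio of sums of 0.17 (0.08 to 0.25) over all counts, below 0 as a share of snoRNA counts. Most of these counts lay on the 30 SNORD116 entries, 1365 and 3142, of which 9 passed the filter. SNORD64, the most abundant single entry there, had 166 and 350 counts. The 1 listed SNORD115 entry had 1 and 3 counts. The 28 entries of the 14q32 cluster held 345 and 1009 counts, 53.5 and 76.9 CPM, with a ratio of sums of 0.52 (0.35 to 0.70), and its 1 entry past the filter, SNORD114-9, had 74 and 224 counts.

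The 46 copies known by Rfam family only held 2484 counts in normoxia and 7240 in hypoxia. The 11 U8 copies held 2180 and 6295 of these, a log2 ratio of sums of 0.51 (0.44 to 0.58), the 28 U3 copies 287 and 896, a ratio of 0.62 (0.43 to 0.82), and the 7 snoU13 copies 17 and 49. The median identity to the parent snoRNA was 84.3% for U8 copies, 79.8% for U3 copies and 89.3% for snoU13 copies. Among the 28 U3 copies, 9 had an interval above 0, against 7.31% of all 3927 features below the filter. These 9 had 2 to 8 counts each in normoxia and 29 to 49 in hypoxia, all below the filter. Summed, these 9 had 48 and 386 counts and a log2 ratio of 1.98 (1.55 to 2.45), while the SNORD3 sum lay at -0.05. They were picked by their intervals, so the sum only describes them. They share the 15-base stretch ctttcagggatcatt, bases 10 to 24 of SNORD3A, which also occurs in 7 of the 9 SNORD3 entries and in 3 of the other 19 U3 copies.

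The box motifs bear on the label. TGATGA starting within the first 15 bases was found in 190 of the 326 entries (58.3%). CTGA followed by at most 10 bases was found in 296 (90.8%), and both in 184 (56.4%). Both were found in 12 of 201 H/ACA box snoRNAs and scaRNAs (5.97%), in 23 of 221 snoRNA entries without a name (10.4%), and in 1 of 3072 other listed small RNAs of 50 to 250 bases (0.0326%). TGATGA anywhere was found in 235 C/D box entries (72.1%) and in 2.21% of the other small RNAs, and CTGA in its window in 4.30% of them. The entries are therefore C/D box by sequence far more often than any of the other classes, and an entry without these exact letters may hold a variant of a box. The median ratio of the 97 entries past the filter with both boxes was 0.24, and that of the 64 without both was 0.30. C/D box entries were 61 to 307 bases long with a median of 82, against a median of 134 bases for H/ACA box snoRNAs and scaRNAs, and their GC content ran from 27.8% to 70.3% with a median of 43.5%.

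Some genes are listed more than once. There were 75 entries in 37 sets of identical sequence. The 70 second or later entries of a label held 1.86% of the C/D box counts in normoxia and 1.74% in hypoxia. These 70 include separate U3, U8 and snoU13 copies that share a label only because they lie on the same chromosome. Most second entries had few counts, such as 1 and 6 for SNORD27, whose first entry had 18976 and 42142. The exception with the most counts was a second SNORD44 entry in GAS5, with 4321 and 8871 counts and a ratio of 0.01 (-0.04 to 0.07), beside 0.19 for the first. The 61 bases that align between them are identical, and the table's coordinates for the second entry span only part of its length. SNORD116-3 and SNORD116-9, which share 1 sequence, had 85 and 215 counts each, and these doubled entries were chosen after their values were seen. The sources used here do not say how reads that match several entries were counted.

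The 165 entries below the filter held 0.655% of the C/D box counts in normoxia and 0.738% in hypoxia. None of them had more than 9.92 CPM in normoxia or 12.2 CPM in hypoxia. The interval of the ratio lay above 0 for 23 of them (13.9%), against 7.31% of all 3927 features below the filter, and below 0 for 2 (1.21%), against 3.72%. The 2 were SNORD23 from NOP53, with 64 and 82 counts, and a second entry of SNORD76, with 5 and 1, both named after their values were seen. For the rest, a difference was not detectable at this depth.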

How the data were processed

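Small RNA libraries of A549 cells in normoxia and hypoxia, 1 per condition, were compared through a table of raw counts per small RNA that the authors deposited; no sample column of it was left unused (0). The build is hg19 per the submitters' notes; the sources used here do not name the aligner, the counting program or the annotation. Gene names are absent from the table. Names came from GENCODE version 29 by transcript identifier for 193 entries, from RefSeq genes of GRCh38.p14 at the place of the identical sequence for 76, of the identifier for 7 and of a partial match for 4, and from Rfam family names for 46. Host genes in this annotation replaced the host lists planned from textbook knowledge. Members and lists were chosen with earlier results of these data known.

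Shares carry exact Clopper-Pearson 95% intervals, and ratios exact conditional binomial 95% intervals. Single entries were scaled to CPM with a prior count of 2 and counted as higher or lower at a log2 ratio of at least 1 and a mean CPM of at least 10. No p-value was computed, since there is 1 library per condition. The calculation was tested on simulated data. Named entries are the 10 with the most counts in each library, the 5 largest and 5 smallest ratios past the filter with an interval that excludes 0, the snoRNAs of the role list, the most abundant entry of each host with 2 or more entries past the filter, and the 2 just inside and just outside the size rule on either side. The values of 1 host list are not reported here. Alternatives were other denominators, scaling to snoRNA counts, by TMM or by DESeq2 size factors, other filters, thresholds and prior counts, thinning of the deeper library, merged entries and other member lists. Python 3.11.15 with scipy 1.17.1, pandas 2.3.3, numpy 2.4.6, Biopython 1.88 and matplotlib 3.10.9, and R 4.3.3 with edgeR 4.0.16 and DESeq2 1.42.0 were used.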

Additional observations from a re-analysis of the deposited data

How the results depend on the processing

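The log2 ratio of the C/D box share turned from 0.24 to -0.0038 with snoRNA counts as the denominator, was 0.33 over mature miRNA counts and 0.25 without the most abundant entry. The shares in normoxia and hypoxia were 84.0% and 83.8% of snoRNA counts, 6.07% and 7.64% of mature miRNA counts, 4.12% and 4.87% with entries of a name merged to their highest, 3.95% and 4.69% without the most abundant entry, 4.21% and 4.95% with SNORD names alone, and 4.40% and 5.21% with unnamed entries holding both boxes added. The last, leaving out copies known by Rfam family, and mature miRNA counts as the base for host and role lists were chosen after seeing the data.

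The 3 entries past the rule upward and 0 downward became 1 and 1 as shares of snoRNA counts, 50 and 3 without a filter, 31 and 2 at a log2 ratio of 0.5, and 1 and 0 of 120 at a mean CPM of at least 50. Of all features, 907 and 273 of 5475 passed without a filter, and 30 and 22 of 819 (3.66% and 2.69%) at a mean CPM of at least 50. The median of 0.27 became 0.027 as a share of snoRNA counts, 0.15 under TMM over all features and 0.17 with DESeq2 size factors. The cause was not tested. Of the other values, 371 stayed within their interval or range and 224 moved. Of 60 named entries, 51 had ratios above 0 over all counts and 33 as shares of snoRNA counts.

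No paired analysis was possible because there is 1 library per condition. Neither library was left out in turn, since nothing would remain to compare. The low counts of the 165 entries below the filter limit their ratios, and the table leaves out small RNAs under 3 counts.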

Other observations

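Some snoRNA entries without a name had high counts. The 2 with the most in the GAS5 region, not counted as members, had opposite ratios. The first, at chr1:173834760-173834824 in hg19, had 6201 counts in normoxia and 16420 in hypoxia (log2 ratio 0.38, 0.34 to 0.42). The second, at chr1:173836017-173836076, had 4385 and 7617 counts, a ratio of -0.23 (-0.28 to -0.17). By position the first lies between SNORD79 and SNORD44, and the second between SNORD76 and SNORD74. Both may therefore be C/D box snoRNAs of GAS5 that the naming missed. Neither holds both boxes in the windows used, and both were chosen after their values were seen. An entry at chr20:2443608-2443683 that does hold both had 5691 and 16293 counts and a ratio of 0.49 (0.45 to 0.54), and another at chr12:57037464-57037538 had 1940 and 4742 counts and a ratio of 0.27 (0.19 to 0.34).

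A few small RNAs listed under other types lie within C/D box snoRNAs. The sequence of miR-3607-3p is bases 41 to 62 of the 63 bases of SNORD138, and had 73 and 126 counts with a log2 ratio of -0.23 (-0.66 to 0.20), beside 124 and 232 counts for SNORD138. The sequence of miR-3607-5p is bases 2 to 25 of the same entry, and had 4 and 14 counts and a ratio of 0.63 (-0.89 to 2.84). The mature miR-3653 is bases 65 to 84 of SNORD125 and had 1 and 2 counts, beside 68 and 156. Entries of the piRNA type match the ends of SNORD82, SNORD43, SNORD17 and SNORD63, and had at most 7 counts each in a library. For SNORD62A/SNORD62B, an entry of another type with the same sequence had the same counts, 368 and 1378.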
